A study of Mus musculus with 3 samples.

Results

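The sites described here are places in hindlimb chromatin where the binding summits of Hoxc10 and Tbx4 nearly coincide. They were chosen from the summit lists of both factors: a Hoxc10 site was taken when the nearest Tbx4 summit on its chromosome lay at most 50 bp away. This rule picked 218 of the 1614 Hoxc10 sites (13.51%), each with its own Tbx4 partner among 4780 Tbx4 sites (4.561%). They make up 42.08% of the 518 Hoxc10 sites with a Tbx4 summit within 200 bp. The other 300 of these, with summits 51 to 200 bp apart, serve as the comparison, and the remaining 1096 Hoxc10 sites had no Tbx4 summit that near. The summit positions chose the members, so their distances and scores are given as a description.

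The lists come from ChIP-seq of wild-type CD1 mouse hindlimb buds at e11.5, when the limb bud is growing out, 1 with a homemade antibody to Tbx4 and 1 with an Abcam antibody to Hoxc10. Another sample, Hoxc10 ChIP made with an antibody from Santa Cruz at the same stage, tissue and genotype, was not analysed here. The labels name no transgene, deletion or treatment in any group, and none of the sources used here gives the number of embryos pooled. Each list stands for 1 sample, so no difference below has a replicate check and no test between classes of sites was run. Intervals are 95% Wilson intervals for shares and order-statistic intervals for medians, and they cover counting error over sites only. The depth of sequencing is unknown because only summits and scores were used.

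T-box proteins such as Tbx4 bind DNA through the T-box domain and recognise sequences related to the Brachyury half-site. Hox proteins of the posterior groups, such as Hoxc10, bind through a homeodomain to AT-rich sequences, often beside homeodomain cofactors of the TALE class. In the limb, Tbx4 is known for its expression in the hindlimb and its part in hindlimb outgrowth, and the posterior Hox genes for patterning the skeleton along the limb.

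Reference sequence was at hand for 2 of the 218 sites, those that fall in an upstream stretch of the RefSeq promoter table (GRCm38.p6, the assembly of mm10). Both are shown because they place each summit on the letters around it. Capitals mark the stretch from one summit to the other. The first lies at chr1:73363656-73363905, plus strand, the 250 bases before the start of the long noncoding RNA gene Gm31344. The second lies at chr6:144945030-144945279, minus strand, before the start of the long noncoding RNA gene Gm46721.
Gm31344: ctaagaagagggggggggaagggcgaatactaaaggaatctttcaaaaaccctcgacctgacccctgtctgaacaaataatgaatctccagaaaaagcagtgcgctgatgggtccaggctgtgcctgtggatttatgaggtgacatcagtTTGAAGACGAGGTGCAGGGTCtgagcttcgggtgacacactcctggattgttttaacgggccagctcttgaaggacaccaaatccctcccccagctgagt
Gm46721: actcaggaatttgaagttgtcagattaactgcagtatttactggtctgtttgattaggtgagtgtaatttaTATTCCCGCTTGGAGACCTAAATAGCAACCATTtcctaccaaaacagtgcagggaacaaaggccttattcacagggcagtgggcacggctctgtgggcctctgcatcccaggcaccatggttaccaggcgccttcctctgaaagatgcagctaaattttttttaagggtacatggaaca
At Gm31344 the Tbx4 summit is base 151 and the Hoxc10 summit base 171, counted from 1 at the 5′ end, or 100 and 80 bp before the start of transcription. This was also among the strongest of the 218 sites, with a Tbx4 score of 80.22 and a Hoxc10 score of 23.67. At Gm46721 the Hoxc10 summit is base 72 and the Tbx4 summit base 104, where Hoxc10 scored 5.05 and Tbx4 4.46.

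Neither stretch held an exact match, on either strand, to the T-box letters GGTGTGA, to the shorter GTGTGA contained in it, to the posterior Hox letters TTTATGG, or to the related Hox letters TTTATTG and to the variant TTTACGA. In the same 250 bases of all 32851 entries of the promoter table these letters were found in 3.33%, 12.3%, 2.43%, 4.2% and 0.478%. With 1 mismatch allowed, a choice made after the exact search, the Gm31344 stretch held a T-box match, ggtctga, at bases 168 to 174, centred on the Hoxc10 summit. It also held tttatga at bases 132 to 138, centred 16 bp from the Tbx4 summit, which is 1 mismatch away from TTTATGG and from TTTACGA, and ccagaaa, a minus-strand match to TTTATGG, 80 bp from the Hoxc10 and 60 bp from the Tbx4 summit. The Gm46721 stretch held tttactg at bases 37 to 43, 1 mismatch from TTTATTG, and its centre was 32 bp from the Hoxc10 summit and 64 bp from the Tbx4 summit. Its other match, tttaagg to TTTATGG, was 163 and 131 bp from them. Such loose matches are common: 51.6% of promoter entries held one to GGTGTGA, 42.1% to TTTATGG, 44.6% to TTTATTG and 23.2% to TTTACGA.

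Within the 50 bp window the summits lay at a median of 23 bp from each other (quartiles 11.25 and 34). Of the 218 pairs, 23 were within 5 bp, 51 within 10 bp and 119 within 25 bp. The Tbx4 summit had the higher coordinate in 107 pairs and the lower in 109, and in 2 pairs both summits fell on the same base. The density of sites was lower at larger distances, with uneven steps, going from 4.64 per bp at 0 to 10 bp and 2.7 per bp at 41 to 50 bp to 3.6 per bp at 51 to 60 bp and 1.25 per bp at 181 to 200 bp. No gap in the distances marks the limit of 50 bp. Just inside it were 3 pairs at exactly 50 bp. Their Hoxc10 and Tbx4 scores were 27.55 and 13.57 at 63709 bp from Actrt2, 10.67 and 14.74 inside Kcnab1, and 4.43 and 6.19 at a site 1350626 bp from Gm40892. Just outside were pairs at 51 bp inside Clnk (12.24 and 7.14) and inside Tead1 (6.34 and 3.67). Another pair, at 52 bp, lay 399242 bp from Gm11677 (7.72 and 33.08).

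**Figure D1:**
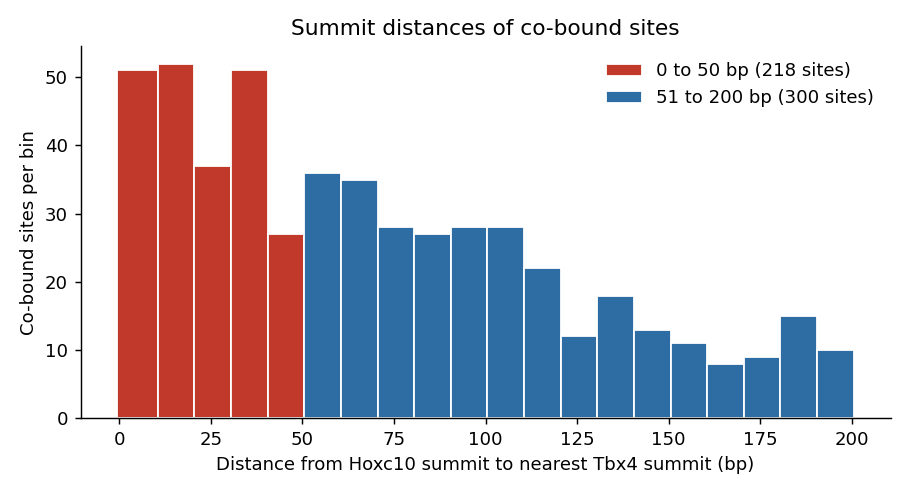
Number of co-bound sites (y axis) by distance in bp from the Hoxc10 summit to the nearest Tbx4 summit (x axis), in bins of 10 bp, the first of which also holds distance 0. Red bars are the 218 sites within 50 bp and blue bars the 300 sites at 51 to 200 bp, and the bars fall unevenly, with no gap at the limit.

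The score beside each summit is the authors' MACS2 value on a −log10 scale, read here only within its own list. Among the 218 sites the Hoxc10 score had a median of 9.91 (95% interval 8.43 to 11.45; quartiles 5.69 and 16.39) and ran from 2.2 to 178.68. At the 300 sites with wider spacing the median was 8.43 (7.72 to 9.16), so the intervals overlap, and at Hoxc10 sites without a Tbx4 summit within 200 bp it was 7.355 (7.02 to 7.72). The Tbx4 score of the partners had a median of 7.63 (6.19 to 9.15; quartiles 3.67 and 14.74) and ran from 1.63 to 317.06. Its median was 6.19 (6.19 to 7.14) at the wider pairs, against 3.67 over the whole Tbx4 list. In the top 25% of Hoxc10 scores, 19.6% of sites had a Tbx4 summit within 50 bp (16.02 to 23.76%), and in the lowest 25% 9.358% (6.806 to 12.74%). For Tbx4 these shares were 9.319% (7.821 to 11.07%) and 1.881% (1.221 to 2.888%). The wider pairs also took a larger share of the top than of the lowest 25%, with 22.58% and 14.97% for Hoxc10 and 11.99% and 3.01% for Tbx4. Their Hoxc10 shares did not fall steadily, with 15.68% in the second and 20.54% in the third 25% of scores. Sites within 50 bp had 14.14% and 10.94% there.

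Strong binding of one factor at such a site did not come with strong binding of the other throughout. Both scores were above their list medians at 101 of the 218 sites (46.33%, 39.83 to 52.96%) and at 37.67% of the wider pairs (32.37 to 43.27%). Both were at or below at 28 (12.84%), against 18.67% of the wider pairs. At 33 sites the Hoxc10 score alone was above its median and at 56 the Tbx4 score alone. Both were in the top 10% of their lists at 21 sites (9.633%, 6.387 to 14.28%), compared with 14 of the 300 wider pairs (4.667%, 2.8 to 7.68%). Both were in the top 25% at 21.1% of the 218 (16.21 to 26.99%) and 16.33% of the wider pairs (12.58 to 20.94%). Across the 218 sites, which share both libraries, Spearman's rho of the scores was 0.203 and Pearson's r 0.619. Without the 2 sites farthest from the median Hoxc10 score, r was 0.229. These were the sites near Gpr84 (Hoxc10 178.68, Tbx4 317.06) and Osr1 (104.02 and 3.67). Only the site near Gpr84 was high for both factors, and r without that site alone was not computed. The wider pairs had a rho of 0.156 and an r of 0.207.

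**Figure D2:**
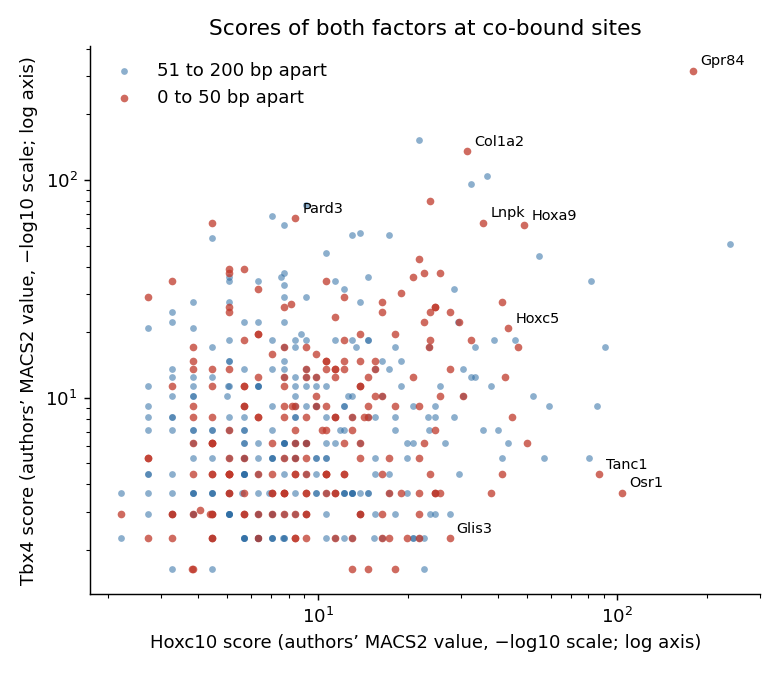
Hoxc10 score (x axis) against Tbx4 score (y axis), both the authors' MACS2 values on a −log10 scale and both axes logarithmic, 1 point per co-bound site. Red points are sites with summits 0 to 50 bp apart and blue points 51 to 200 bp apart; labels give the nearest gene, with Gpr84 high on both axes, Osr1 and Tanc1 high for Hoxc10 alone and Pard3 high for Tbx4 alone.

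The site with the highest scores of the 218 for both factors lay on chromosome 15 near Gpr84, which encodes a fatty acid receptor. Its Hoxc10 summit at 103305413 ranked 2 in the Hoxc10 list and its Tbx4 partner, 16 bp away, ranked 1 in the Tbx4 list. The site lies 2820 bp beyond the gene and 268557 bp beyond the Hoxc cluster. Next by the sum of both ranks was a site inside Hoxa9 (Hoxc10 48.91, Tbx4 62.04), a posterior Hox gene. It was followed by one outside Col1a2, a chain of type I collagen (31.58 and 135.45), and one outside Lnpk, a gene beside the Hoxd cluster (35.74 and 63.65). The summits 55033 bp from Cep85l scored 41.1 for Hoxc10 and 27.52 for Tbx4. Inside Npas3, a bHLH-PAS factor gene, they scored 21.79 and 43.32, and outside Ing1, a gene for a chromatin-binding protein, 22.72 and 37.4.

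Ccser1 held a pair of members only 792 bp from each other on chromosome 6. The Hoxc10 score was 25.59 at the lower one, at 61215904, and 4.43 at the other, at 61216696. The Tbx4 score ran the other way, 37.4 at the first and 63.65 at the second. The order of the sites thus differs between the factors within less than 1 kb.

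The 218 sites also held pairs of very unequal rank. A Hoxc10 summit at 9368848 of chromosome 12 lay 205594 bp from Osr1, a zinc finger factor of limb connective tissue. It scored 104.02, above 99.8% of its list, and the Tbx4 summit 11 bp away scored 3.67, above 38.7% of its list. At 48905 bp from Tanc1, a scaffold protein gene, the scores were 86.81 for Hoxc10 and 4.46 for Tbx4, with the summits 1 bp apart. A site 187648 bp from Thap1 on chromosome 8 scored 50.05 and 6.19. The reverse was seen inside Pard3, a cell polarity gene, where both summits fell on base 127197100 of chromosome 8 with a Hoxc10 score of 8.43 and a Tbx4 score of 66.91. Inside Ebf2, a factor of connective tissue lineages, the Hoxc10 score was 2.72 and the Tbx4 score 28.89. At 27998 bp from Eya2, a transcriptional coactivator gene, they were 5.69 and 38.86. Small distance therefore occurred with high scores of both factors, of Hoxc10 alone and of Tbx4 alone.

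Few of these sites were next to a protein-coding gene's end. Within 1 kb of such an end lay 5 of 218 (2.294%, 0.9836 to 5.256%), compared with 3 of 300 wider pairs (1%, 0.3407 to 2.898%) and 6.661% of Hoxc10 sites without a Tbx4 summit within 200 bp (5.331 to 8.293%). Among Tbx4 sites without a Hoxc10 summit within 200 bp the share was 14.22% (13.21 to 15.3%). Inside a gene lay 88 sites (40.37%, 34.08 to 46.99%), and of the wider pairs 36% (30.78 to 41.58%). Of Hoxc10 sites without a Tbx4 summit within 200 bp, 39.42% were inside a gene (36.56 to 42.34%). Another 71 sites (32.57%, 26.7 to 39.04%) were outside genes and over 100 kb from any gene end, against 31.67% of the wider pairs (26.66 to 37.13%). Hoxc10 sites without a Tbx4 summit within 200 bp had 27.28% (24.73 to 29.99%), an interval that overlaps that of the 218 sites. Tbx4 sites without a Hoxc10 summit within 200 bp had 19.13% (17.97 to 20.34%). In each of these 3 measures the intervals of the 218 sites and the 300 wider pairs overlap, and the difference itself was not tested. The gene table has no exons or introns, so sites inside genes were not divided further. With noncoding genes included, 6.881% lay within 1 kb of a gene end, 51.38% were inside a gene and 7.798% were over 100 kb from a gene end, compared with 41.74% for the last measure with protein-coding genes alone.

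**Figure D3:**
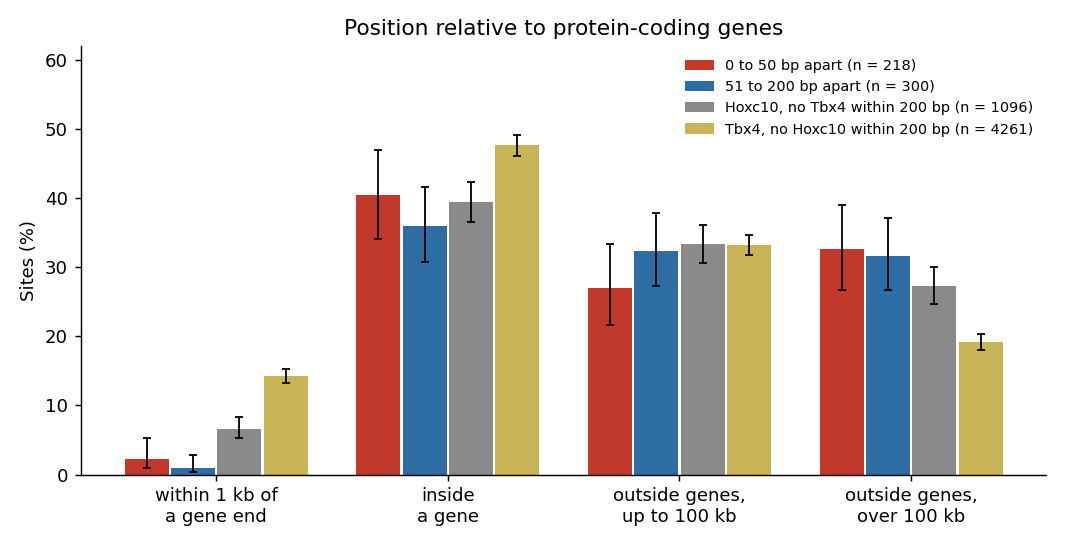
Share of sites in % (y axis) by position relative to protein-coding genes (x axis) for 4 classes of sites; bars are shares and lines 95% Wilson intervals. The last 3 positions add up to all sites and the first overlaps them. Within 1 kb of a gene end the red bar stands at 2.294%, compared with 6.661% for Hoxc10 sites without Tbx4 and 14.22% for Tbx4 sites without Hoxc10.

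The 5 sites within 1 kb of a gene end were of mixed strength. The strongest lay inside Hoxc5, a gene of the Hoxc cluster, 630 bp from its end, with a Hoxc10 score of 43.3 and a Tbx4 score of 20.91. Inside Glis3, a Kruppel-like zinc finger gene, the summits were 1 bp apart, 604 bp from an end of the gene, and scored 27.55 and 2.26. Outside Ptk2, the gene for focal adhesion kinase, they lay 40 bp from the gene and scored 8.43 and 4.46. The sites 831 bp from Usf3 and 487 bp from Skida1 scored 5.05 and 26.17, and 4.43 and 6.19.

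All 4 Hox clusters had a member inside the cluster or within 500 kb of it. Besides Hoxa9 and Hoxc5, the body of Hoxb3 held one at 96326148 of chromosome 11 (Hoxc10 13.86, Tbx4 11.3). The gene end nearest to it was that of Hoxb4, 4510 bp away. The Hoxd cluster itself held none, and the site outside Lnpk lay 287130 bp from Hoxd13. With the site near Gpr84 this makes 5 members among the 31 Hoxc10 sites of these windows (16.1%), close to the 13.51% of the whole Hoxc10 list. The windows, chosen with these values known, also held 1 wider pair, 110385 bp beyond Hoxa13 (11.45 and 8.12), and 39 Tbx4 sites. In 4 of the 5 members the Hoxc10 score was 35.74 or more. The score of 35.74, outside Lnpk, ranked 13 among all members and was above 96.84% of the Hoxc10 list. The windows also held 25 Hoxc10 sites without a Tbx4 summit within 200 bp, and their scores were not compared with these.

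Genes around the sites were counted by domains. A domain takes in the gene, 1 kb on either side of it and the space up to the next protein-coding gene, at most 1 Mb, so that a site between neighbours counts for both. A counted site can thus lie nearer to another gene, as for Prrx1, Nrp2, Osr2, Msx2, Twist2, Irx3, Wnt11, Boc, Pthlh and Stmn2 below. The same holds for part of the sites of Meis1, Tshz1, Tbx15, Tbx18, Tcf7l2, Ebf2, Sox5, Zfp608 and Mycn. Of all 21887 protein-coding genes, 281 (1.28%) had at least 1 of the 218 sites in their domain, and 368 (1.68%) one of the wider pairs. Of the 294 genes in 10 lists of limb, Hox, T-box and pathway genes, 42 (14.3%) had one of the 218 sites and 49 (16.7%) a wider pair. Of the 87 genes in 5 lists of other cell types and housekeeping genes, 2 (2.3%) had one of the 218 sites and 3 (3.45%) a wider pair. Domain length moves with these shares and its part was not tested. The median domain was 296.1 kb for the first lists, 67.27 kb for the second, 65.64 kb for all genes and 624.1 kb for genes with a site. Among genes with domains of 200 to 500 kb, 2.72% of all (73 of 2686) and 19.7% of the limb, Hox, T-box and pathway genes (13 of 66) had a site. None of the 14 genes of other cell types and housekeeping with such domains had one. For domains over 1000 kb the shares were 9.3% of all genes (84 of 903), 22.4% of the limb, Hox, T-box and pathway genes (15 of 67) and 33.3% of the other cell type and housekeeping genes (2 of 6). At that length the lists of other cell types thus did not have the lower share, on only 6 genes.

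**Figure D4:**
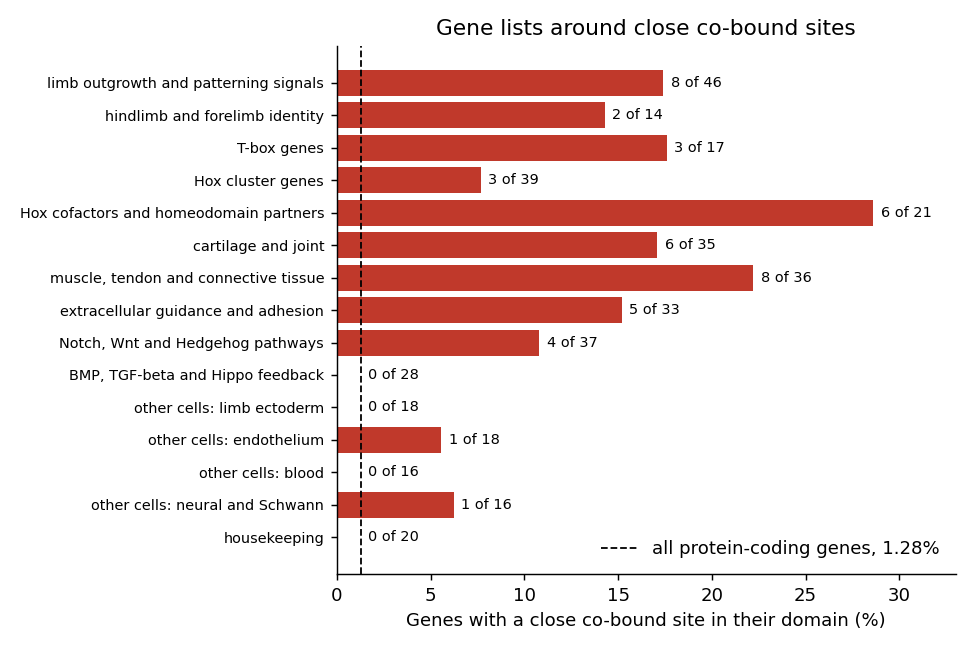
Share of genes in % (x axis) that have at least 1 site with summits 0 to 50 bp apart in their domain, for each of 15 gene lists (y axis), with the counts beside the bars. The dashed line is the share of all protein-coding genes, 1.28%. The highest bar is that of Hox cofactors and homeodomain partners, 6 of 21, and 4 lists are at 0. Domain length differs between lists, from a median of 13.48 kb for Hox cluster genes to 1176 kb for guidance and adhesion genes.

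Transcription factors of the Hox and T-box families and their partners are described before the signalling and tissue genes. Of 21 Hox cofactors and homeodomain partners, 6 had a site (28.6%), among them Meis1, Tshz1 and Irx3. The median domain of the 21 was 687.4 kb, and of all genes with domains of 500 to 1000 kb 6.96% had a site. A wider pair was found at 13 of these 21 genes (61.9%). Meis1, a TALE-class cofactor of Hox proteins, had 3 members and 0 wider pairs. Beyond the end of the gene, 167553 bp away, a summit pair scored 44.41 for Hoxc10 and 8.12 for Tbx4, and a second pair 1704 bp from it scored 8.43 and 7.14. The third lay 591790 bp upstream of the start and scored 3.83 and 8.12. Tshz1, a zinc finger homeodomain gene, had a site inside the gene with 41.1 for Hoxc10 and 4.46 for Tbx4, and another 520151 bp from it with 5.05 and 24.83. Irx3, an Iroquois gene of the proximal limb, had a site 122010 bp downstream of its start, beyond the neighbouring gene Fto's end, with 5.69 and 18.38.

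Of 17 T-box genes 3 had members (17.6%) and 2 a wider pair. The Tbx4 gene itself had a site at 85917208 of chromosome 11, just 1111 bp beyond the end of the gene and 20443 bp downstream of its start. It scored 13.04 for Hoxc10 and 8.12 for Tbx4, with the summits 32 bp apart. Tbx15 had 3 sites between its own end and Spag17, with Hoxc10 scores of 11.45, 8.43 and 42.2 and Tbx4 scores of 8.12, 4.46 and 12.42. Tbx18 had 2, of which the one 337723 bp upstream scored 12.24 and 18.38. Among identity genes of the hindlimb and forelimb, Tbx4 and Hoxa9 were the 2 genes of 14 with a site (14.3%), and Pitx1, Isl1 and Tbx5 had none. A wider pair was found for 1 of the 14. Of the 39 Hox genes, Hoxa9, Hoxc5 and Hoxb3 had one (7.69%).

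Genes for outgrowth and patterning of the limb numbered 46, of which 8 had a site (17.4%) and 10 a wider pair. These were Twist2, Prrx1, Msx2, Spry2, Alx4, Cyp26b1, Irx3 and Aldh1a2. Msx2, a homeobox target of BMP signalling, had a site 520532 bp upstream with 16.39 for Hoxc10 and 24.83 for Tbx4. Twist2, a bHLH factor of limb mesenchyme, had one 215841 bp upstream with 15.53 and 13.57. Inside Aldh1a2, which encodes an enzyme that makes retinoic acid, the scores were 10.67 and 14.74, and beyond Cyp26b1, whose product degrades it, 2.72 and 5.3. Prrx1, a homeobox gene of early limb mesenchyme, had a site 60978 bp upstream with 14.69 for Hoxc10 and a low 1.63 for Tbx4. The ligand genes Shh, Fgf8, Fgf10, Bmp4 and Wnt5a had none in their domains.

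A site was found for 8 of 36 genes of muscle, tendon or connective tissue (22.2%), and a wider pair for 5. They were Osr1, Osr2, Six4, Ebf2, Cdh2, Tcf7l2, Eya2 and Col1a2. Osr2, the paralogue of Osr1, had a site 56329 bp away with 9.16 for Hoxc10 and 12.42 for Tbx4. Tcf7l2, a Wnt effector and marker of muscle connective tissue, had 2 sites, 78991 bp upstream (10.67 and 13.57) and 73465 bp downstream of its start (12.24 and 4.46). Of 35 cartilage and joint genes 6 had a site (17.1%) and 7 a wider pair. Sox9, which directs the formation of cartilage, had a single member among its 7 Hoxc10 and 17 Tbx4 sites, 226729 bp from the gene, with 24.63 for Hoxc10 and 3.67 for Tbx4. Its partner Sox5 had 2, one inside the gene (13.86 and 14.74) and the one at the promoter of Gm46721 shown above. Sox4 had 2, with Hoxc10 scores of 5.05 and 13.04 and Tbx4 scores of 3.67 and 2.26. Trps1, a GATA-type factor of the growth plate, had one inside the gene (13.86 and 6.19), Sox11 one (7.72 and 9.15) and Pthlh, a ligand of the growth plate, one 163122 bp upstream (4.43 and 13.57).

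Of 33 guidance and adhesion genes 5 had a site (15.2%), namely Nrp2, Epha4, Efna5, Plxna4 and Efnb2, and 6 had a wider pair. The median domain of these 33 genes was 1176 kb, and of all genes with domains over 1000 kb 9.3% had a site. Efna5, a membrane-bound ephrin, had 2 inside the gene, with Hoxc10 scores of 12.24 and 21.79 and Tbx4 scores of 14.74 and 9.15. Epha4, an ephrin receptor, had one 534679 bp beyond the gene (11.45 and 13.57), and Nrp2, a semaphorin receptor, one 55182 bp upstream (16.39 and 4.46). Of 37 Notch, Wnt and Hedgehog genes 4 had a site (10.8%): Tcf7l1 (13.83 and 5.3), Notch2 (10.67 and 4.46), Wnt11 (13.04 and 1.63) and Boc (3.26 and 2.26). The Wnt11 site lay 113737 bp from Wnt11 and 3285 bp from Thap12. The Boc site lay 106842 bp from Boc and 58589 bp from Nepro. A wider pair was found for 5 of the 37 genes. None of 28 BMP, TGF-beta and Hippo feedback genes had one, although 7 had a Hoxc10 site and 15 a Tbx4 site. Among genes of other cells, the endothelial list had 1 of 18, Ets1 (3.26 and 11.3), and the neural and Schwann cell list 1 of 16, Stmn2, 565674 bp away (10.67 and 34.51). The limb ectoderm, blood and housekeeping lists, with 18, 16 and 20 genes, had none.

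Most domains with a member held a single one. There were 27 domains with 2 members and 9 with 3, the most in any domain. The 9 were those of Meis1, Lrmda, Tenm3, Zfp423, Zfp608, the neighbours Tbx15 and Spag17, and the neighbours Mki67 and Mgmt. In all, Lrmda's domain held 16 Hoxc10 sites and 3 wider pairs, Zfp608's 17 and 5, and those of Mki67 and Mgmt 11 and 4. Tenm3 and Spag17 had 6 and 1, Tbx15 6 and 2, Meis1 5 and 0, and Zfp423 3 and 0. These domains ran from 527518 bp (Zfp423) to 2381157 bp (Tenm3), against a median of 65.64 kb for all genes. The part of length in these counts was not tested. Lrmda, a melanocyte differentiation gene, had all 3 inside its long gene body, with Hoxc10 scores of 19.04, 25.59 and 22.72 and Tbx4 scores of 30.28, 10.21 and 22.2. Both scores were above their list medians at each of these 3 sites. Zfp423, a zinc finger gene of mesenchymal lineages, had 3 members that were all its Hoxc10 sites. Their summits were 3, 5 and 6 bp apart, with Hoxc10 scores of 10.67, 16.39 and 7.72 and Tbx4 scores of 7.14, 27.52 and 5.3. Tenm3, a teneurin adhesion gene, had 3 inside the gene (Hoxc10 14.69, 21.79 and 8.43, Tbx4 9.15, 5.3 and 2.26). Zfp608 on chromosome 18 had 3 at over 500 kb from the gene on both sides, with Hoxc10 scores of 9.91, 18.15 and 8.4. Between Mki67 and Mgmt the 3 Hoxc10 scores were 4.43, 6.34 and 13.86.

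**Figure D5:**
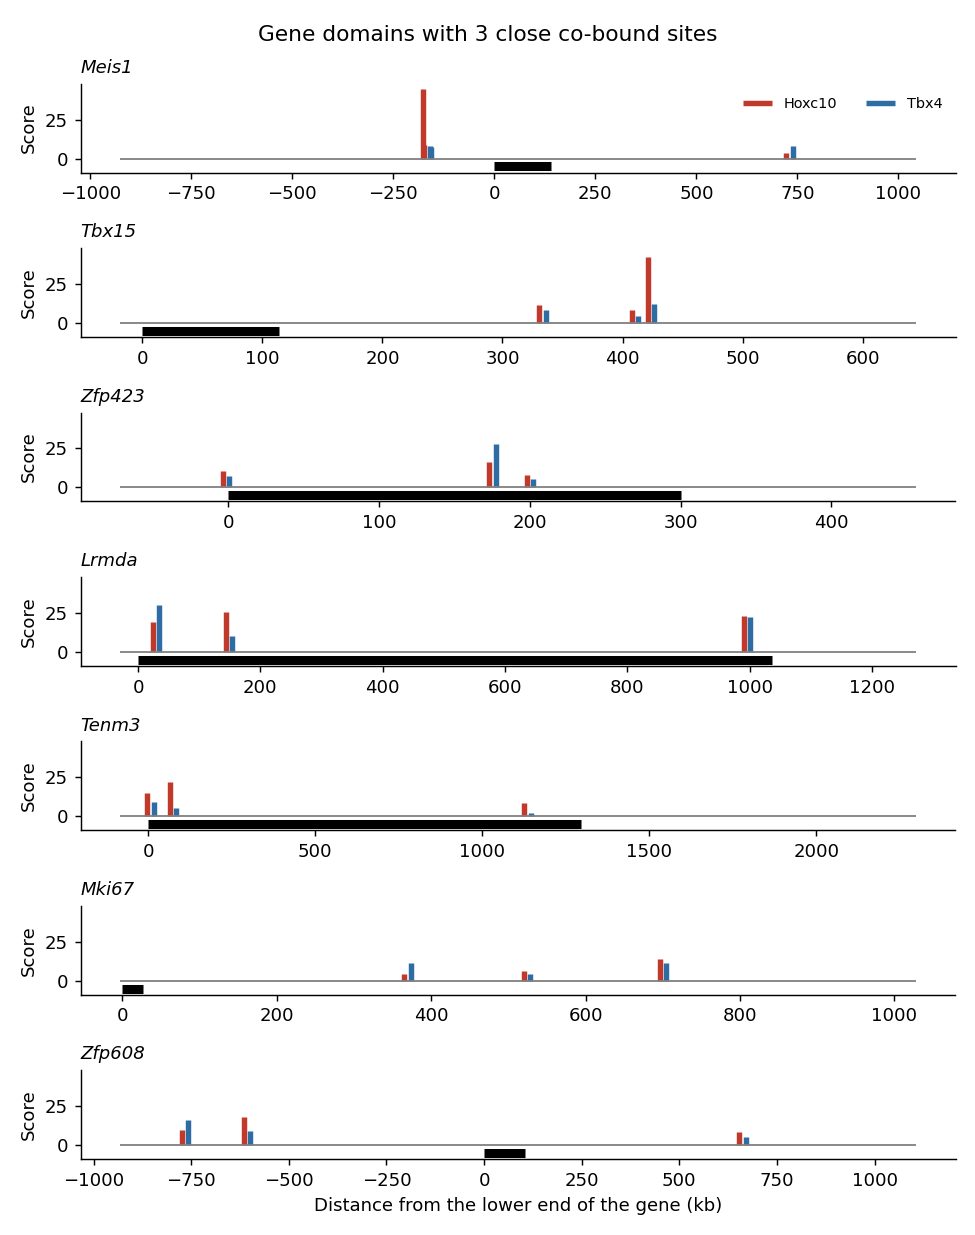
Position of the sites in 7 of the 9 domains with 3 members (Spag17 and Mgmt share theirs with Tbx15 and Mki67), as distance in kb from the lower end of the gene (x axis) against score (y axis, authors' MACS2 value on a −log10 scale). The thin line is the domain and the thick bar the gene; red and blue lines are the Hoxc10 and Tbx4 scores of 1 site, drawn side by side, with the highest Hoxc10 score of these panels, 44.41, beside Meis1.

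Neighbouring sites were common within 100 kb of the members. Another Hoxc10 site lay within 100 kb of 85 of the 218 (38.99%, 32.76 to 45.6%), compared with 42.67% of the wider pairs (37.2 to 48.32%) and 33.39% of Hoxc10 sites without a Tbx4 summit within 200 bp (30.66 to 36.24%). A Tbx4 site other than the partner lay within 100 kb of 140 (64.22%, 57.66 to 70.29%), compared with 60.67% (55.04 to 66.03%) and 54.47% (51.51 to 57.4%). Within 10 kb the members did not have the higher shares. Another Hoxc10 site lay that near to 9.633% of the 218, 10% of the wider pairs and 10.68% of Hoxc10 sites without Tbx4. For another Tbx4 site the shares were 16.51% (12.17 to 22.01%), 14.67% (11.11 to 19.12%) and 19.8% (17.55 to 22.26%). Of the 218 members, 21 had another member within 100 kb (9.633%, 6.387 to 14.28%), and 49 of the 300 wider pairs another wider pair (16.33%, 12.58 to 20.94%). Only sites of the same class count here, so a smaller class has a lower share by construction. For the same reason these shares are not comparable with those for any other Hoxc10 site. Whether members are sparser than their number gives was not tested. After Ccser1 and Meis1, the next closest members were 7453 bp apart inside Dgki, a diacylglycerol kinase gene (Hoxc10 30.56 and 10.67, Tbx4 10.21 and 9.15). Other neighbours lay between 9930104L06Rik and Rspo1, a secreted Wnt agonist, 21632 bp apart, and inside Mecom, a zinc finger factor gene, 68127 bp apart.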

How the data were processed

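Tbx4 and Hoxc10 ChIP-seq summit lists of mouse hindlimb buds were used, 1 list per factor. Per the submitters' processing notes, Bowtie2 2.2.6, MACS2 2.1.1.20160309 and HOMER were run on mm10. The score deposited by the authors beside each summit of 1 bp is a MACS2 value on a −log10 scale; the sources used here do not give whether it is of a p-value or q-value, the control or how the lists were selected. The highest peak numbers are 45103 for Tbx4 and 4026 for Hoxc10, of which 10.6% and 40.1% are present. The name of the Hoxc10 list may mean that only sites within 200 bp of Santa Cruz peaks were kept. A score depends on depth and peak width, so it was read by rank within its list.

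Each Hoxc10 summit was paired with the nearest Tbx4 summit of its chromosome (Python 3.11.15, pandas 2.3.3). Genes came from RefSeq GRCm38.p6; all 379 list genes matched. Upstream and downstream are given where the promoter table, with entries for 17492 of 21887 genes, has the gene's start. Coordinates are 1-based. The planned motif comparison needs genome sequence, which was not used here, so only the promoter table was searched. Pairing and domains were tested on simulated data. The members and gene lists were chosen with earlier results of these data known. Named are the 10 sites with the lowest rank sum, the 5 highest for each factor, up to 5 with summits 0 to 1 bp apart, all within 1 kb of a gene end, up to 5 per list, domains with 3 members and 3 sites on either side of the limit. Genes named beyond this rule were chosen after their values were seen.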

Additional observations from a re-analysis of the deposited data

How the results depend on the processing

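Of 43 alternative values, 24 stayed within the interval or within 1.5 times of the value reported and 19 did not. Limits of 25 and 100 bp gave 119 and 372 sites in place of 218. At 25 bp 26 limb-list and 165 protein-coding genes had a site, and at 100 bp 439 protein-coding genes, in place of 42 and 281. In the higher-scoring 50% of each list there were 101 sites, with median scores of 13.86 for Hoxc10 and 12.42 for Tbx4, 24 limb-list and 135 protein-coding genes with a site, 9 sites with another within 100 kb and 4 domains with 3 or more; fewer sites enter by construction. With noncoding genes included, 6.881% of sites were within 1 kb of a gene end, 51.38% inside a gene and 7.798% over 100 kb from a gene end. Within 5 kb of a gene end lay 8.257%. Domains extended by at most 100 kb beyond the gene gave 24 limb-list and 152 protein-coding genes, where less sequence enters by construction. With each site counted for its nearest gene only, 32 limb-list and 198 protein-coding genes had a site. Allowing 1 mismatch, an alternative added after seeing the data, gave a match in 2 promoters in place of 0. Pairs that are each other's nearest gave every value unchanged. The motif window of 200 bp was not run. No paired analysis was possible because each factor has 1 list. Depth is unknown, and the number of sites limits the precision: with 218 sites the interval of a share near 40% spans from 34.08 to 46.99%.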

Other observations

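The share of Hoxc10 sites with a Tbx4 summit within 50 bp, 13.51% over the whole list, was also counted by chromosome. It was highest among autosomes on chromosome 19, at 22.5% (9 of 40), and on chromosome 6, at 19.09% (21 of 110), and lowest on chromosome 5, at 8.7% (8 of 92). Chromosome 6 carried the members at Hoxa9, Col1a2 and Creb5, a gene for a CREB-family factor with 2 members, and both pairs of neighbours inside Ccser1 and Dgki. Chromosome 19 carried those at Tcf7l2 and Glis3 and one 19826 bp from Dmrt2, a DM-domain factor gene, where Hoxc10 scored 13.86 and Tbx4 19.64. Chromosomes X and Y each had 1 member among 3 and 7 Hoxc10 sites. These are extremes of small counts, no intervals were computed for them and no test of these shares was run.

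Members also lay at genes that were in none of the lists. Mycn, a MYC-family gene of limb growth, had 2 members upstream, at 108058 and 216422 bp from its start, with Hoxc10 scores of 19.94 and 17.26 and Tbx4 scores of 2.26 and 3.67. Inside Mecom the Hoxc10 scores were 6.34 and 37.86 and the Tbx4 scores 12.42 and 3.67. At 71280 bp from Uncx, a homeobox gene of the axial skeleton, the Hoxc10 and Tbx4 scores were 20.86 and 12.42, and 226013 bp from Cxcl12, a chemokine gene, 23.67 and 24.83.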
